A study of Mus musculus with 8 samples.

Results

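UDP-glucuronosyltransferases are enzymes of the endoplasmic reticulum that attach glucuronic acid to bilirubin, steroids, bile acids and drugs, which makes them soluble enough to leave the liver in bile or urine. The sugar comes from UDP-glucuronate, which UDP-glucose dehydrogenase (Ugdh) makes in the cytosol from UDP-glucose. The Ugt2 enzymes are encoded by a cluster of separate neighbouring genes, whereas the Ugt1a enzymes share their last exons and differ in the first.

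The genes described here are 9 glucuronosyltransferases (Ugt1a1, Ugt2a3, Ugt2b1, Ugt2b5, Ugt2b34, Ugt2b35, Ugt2b36, Ugt2b37 and Ugt2b38) and Ugdh, chosen by symbol, with probes matched through the RefSeq accession that the array files give. Of these 10 genes, 9 were matched to 10 probes, among 26551 genes and unnamed transcripts tested. No probe was matched to Ugt1a1, the enzyme that conjugates bilirubin, and it was not analysed here. All 10 probes were well above background on all 8 arrays. The Ugt2b genes are close paralogs. The probes' own sequences were not used here, so how far 1 probe also bound a paralog's transcript was not tested.

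RNA from the whole liver of mice aged 10 to 11 weeks was hybridised to 1-colour arrays in 4 groups of 2: male wild type, male liver specific Bcl-6 deficient, female wild type and female liver specific Bcl-6 deficient. Bcl6 is a transcriptional repressor, and by the title the series asks how it bears on the difference between male and female liver. The strain and the Cre driver are not given in the sources used here, nor is whether the wild type mice carried a floxed allele or Cre. Nothing says that the 2 arrays of a group came from separate animals, and the p-values therefore reflect only how far these samples differ, which may be technical variation.

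Levels are log2 signals relative to the 75th percentile of the same array, so 1 unit is a doubling, and a level is compared only within a probe. A single slide, scanned at 1 time, held the 8 arrays. Since the females filled row 1 and the males row 2, a row effect and a sex effect cannot be told apart, whereas each row held both genotypes. Of 59305 spots that were not controls, 33603 to 36377 an array were well above background and 0 were saturated. Xist and 4 Y-linked genes separated all male from all female arrays, with gaps of 3.92 to 7.0. The single probe for Bcl6 read 3.97 and 2.91 in male wild type, 4.49 and 4.0 in male knockout, 2.95 and 0.86 in female wild type and 1.62 and 4.41 in female knockout. It was not lower in the knockouts, and since its place in the gene is not given it does not check the deletion.

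In bulk liver, fewer cells of a type and less RNA per cell cannot be told apart, so cell type markers were read beside the enzymes. Of 9 tested hepatocyte markers, 1 fell in each sex (Ttr), and the summed signal of that list ran from 7820 to 8085 in male wild type, 7900 to 8059 in male knockout, 7231 to 7477 in female wild type and 7145 to 7979 in female knockout. Its ranges overlapped between genotypes in both sexes, and albumin and Apoa2 were among the markers not called. Of 9 tested markers of B and plasma cells, 4 rose in male and 2 in female knockouts. The summed signal of that list was 12.1 to 12.7 in male wild type against 30.5 to 33.6 in male knockout, and 13.7 to 14.0 against 33.4 to 33.6 in females. Among 10 endothelial markers 3 rose in males and 1 in females (sums of 86.4 to 89.9 against 123 to 131, and 104 to 112 against 121 to 123). Among 10 stellate cell markers, 3 rose in males and 1 fell in females (sums of 75.8 to 88.4 against 100 to 109, and 76.2 to 116 against 105 to 123). Other sums also moved with genotype. Those of 2 enterocyte markers were 56.2 to 67.6 against 124 to 148 in males and 55.0 to 63.4 against 86.0 to 108 in females, with Apoa4, an apolipoprotein that mouse liver also makes, called higher in each sex. Those of 5 erythroid markers were 270.2 to 278 against 330 to 433 and 273 to 302 against 303 to 371, with Alas2 called lower in males and higher in females. Those of 6 neutrophil markers, 0 of them called, were 4.23 to 4.48 against 4.70 to 4.80 and 4.37 to 4.41 against 5.31 to 6.91. Among 7 cholangiocyte markers, Prom1 rose in each sex (sums of 5.08 to 5.89 against 6.51 to 7.31, and 6.91 to 9.01 against 7.01 to 8.0). The sums of the macrophage and of the T and NK cell lists overlapped between genotypes in both sexes, and 0 of their genes were called. Those of 3 adipocyte markers, 0 of them called, overlapped in females and were 4.80 to 5.86 against 5.97 to 6.09 in males. The kidney tubule marker Slc12a1 fell in male knockouts by the test (sums of 1.06 to 2.58 against 0.477 to 0.672 for 3 tubule markers). It read -2.14 and 0.85 in male wild type and between -6.51 and -6.02 on the other arrays, while Umod, Kap and Slc12a3 were not well above background on both arrays of any group. The part of these other cells in the results below was not tested.

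Upstream sequences are shown first for 5 Ugt2b genes that share a stretch of letters before their start. Of these, Ugt2b5 and Ugt2b38 passed the test in males, and Ugt2b35, Ugt2b36 and Ugt2b37 passed it in neither sex. RefSeq promoter sequences (GRCm38.p6) were found for 10 of the 10 genes, and the 250 bases before the start were searched. Capitals mark the string GTTATANTTTAAC, a string of 13 letters with a free middle letter that more of the 10 windows share than any other (5 of them). It was found in these windows and so is no independent finding. The lines show the 120 bases before the start, written along the gene's strand. They are chr5:87424204-87424323 on the minus strand for Ugt2b38, chr5:87254789-87254908 (minus) for Ugt2b37, chr5:87140341-87140460 (minus) for Ugt2b5, chr5:87092556-87092675 (minus) for Ugt2b36 and chr5:87000740-87000859 (plus) for Ugt2b35.
Ugt2b38: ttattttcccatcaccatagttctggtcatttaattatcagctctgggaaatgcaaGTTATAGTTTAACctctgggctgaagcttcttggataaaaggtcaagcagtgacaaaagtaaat
Ugt2b37: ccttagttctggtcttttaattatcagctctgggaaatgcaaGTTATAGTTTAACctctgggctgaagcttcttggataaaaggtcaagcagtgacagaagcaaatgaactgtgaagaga
Ugt2b5: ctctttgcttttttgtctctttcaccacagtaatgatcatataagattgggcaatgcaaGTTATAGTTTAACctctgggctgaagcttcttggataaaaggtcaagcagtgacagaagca
Ugt2b36: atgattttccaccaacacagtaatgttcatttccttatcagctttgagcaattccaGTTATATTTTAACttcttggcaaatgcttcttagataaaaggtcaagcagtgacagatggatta
Ugt2b35: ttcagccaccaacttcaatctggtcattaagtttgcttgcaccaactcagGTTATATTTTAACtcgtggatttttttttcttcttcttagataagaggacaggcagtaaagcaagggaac

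The string lies 61 to 49 bases before the start in Ugt2b5, 64 to 52 in Ugt2b36 and Ugt2b38, 70 to 58 in Ugt2b35 and 78 to 66 in Ugt2b37. On either strand it occurs in 6 of 32851 mouse promoters of the same length (0.0183%), and the only promoter outside these 5 genes is that of Pklr. By the search rule, ties went to the string found in the fewest promoters, so this share is given as a description only. Over 250 bases, Ugt2b37 and Ugt2b38 were 84.8% identical, Ugt2b5 and Ugt2b38 81.5%, Ugt2b5 and Ugt2b37 72.6%, and Ugt2b36 and Ugt2b38 60.1%. The letters AGGTCA, the core of nuclear receptor sites, occur in the same 5 promoters and in 14.0% of all promoters. They lie 22 to 17 bases before the start in Ugt2b5, 25 to 20 in Ugt2b36 and Ugt2b38 and 39 to 34 in Ugt2b37. In Ugt2b35 they lie 215 to 210 bases before it, outside the stretch shown. Since the genes are close paralogs, these matches are not independent of each other. A match is a description of letters, not a bound site.

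Ugt2a3 lies between Ugt2b37 and Ugt2b38 on the chromosome, and Ugt2b1 lies next to Ugt2b35 outside the 5 genes. Both lack an exact match to the string and are shown beside the others. Ugt2b1 does hold a near match, gttatatgttaac, which departs from the string only in the g after the free middle letter. Only exact matches were counted. The 120 bases are chr5:87337196-87337315 (minus) for Ugt2a3 and chr5:86926504-86926623 (minus) for Ugt2b1. Both held no exact match to any of the searched letters and are all in lower case.
Ugt2a3: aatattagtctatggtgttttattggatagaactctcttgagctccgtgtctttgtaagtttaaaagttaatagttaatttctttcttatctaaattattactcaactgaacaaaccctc
Ugt2b1: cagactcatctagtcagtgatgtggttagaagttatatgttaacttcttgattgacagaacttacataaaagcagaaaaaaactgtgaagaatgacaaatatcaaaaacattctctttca

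The sequence before Ugdh is of another kind. Its 250 bases are chr5:65435843-65436092 on the minus strand, with capitals on matches to GCGTG (the core that the aryl hydrocarbon receptor recognises, 3 matches on either strand) and TGACNNNGC (the core of Nrf2 antioxidant response elements, 2 matches, 1 of them overlapping a GCGTG match). These letters occur in 28.2% and 10.2% of all promoters.
Ugdh: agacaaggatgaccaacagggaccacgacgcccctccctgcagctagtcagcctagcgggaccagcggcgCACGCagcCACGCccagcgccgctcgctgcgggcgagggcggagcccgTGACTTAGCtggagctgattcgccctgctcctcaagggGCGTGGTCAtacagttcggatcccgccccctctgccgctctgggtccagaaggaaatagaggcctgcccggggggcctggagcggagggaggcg
The Bcl6 letters TTCCTNGAA (1.31% of promoters) and the STAT5 letters TTCNNNGAA that contain them (7.02%) were in 0 of the 10 windows, which says only that these letters are not in these windows.

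Ugdh, the supplier of the sugar donor, was the only gene of the 9 lower in the knockouts of both sexes by the test. In males it read 5.11 and 5.26 in wild type and 4.48 and 4.26 in knockout. In females it read 5.02 and 4.84 in wild type and 4.19 and 4.35 in knockout. All 4 knockout arrays lay below all 4 wild type arrays, and the highest knockout value, 4.48 in a male, was under the lowest wild type value, 4.84 in a female.

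Ugdh fell by 0.81 ± 0.13 (log2, SE) in males, to a signal 43.0% lower (limma, Benjamini-Hochberg adjusted p = 0.0183 over 26551 features), and by 0.66 ± 0.13 in females, 36.9% lower (adjusted p = 0.0461). Its second probe read 4.95 and 5.17 in male wild type, 4.36 and 4.21 in male knockout, 4.92 and 4.80 in female wild type and 4.09 and 4.31 in female knockout. By that probe the male difference passed (adjusted p = 0.0230 over all probes) and the female difference, -0.66 ± 0.14, missed the threshold (adjusted p = 0.0511). The male call was lost when male knockout replicate 1 or 2 or replicate 2 of the male wild type was left out (adjusted p = 0.0548, 0.103 and 0.0899, difference -0.92, -0.70 and -0.73). The female call was lost whichever 1 of the 8 arrays was left out, with differences of -0.75 to -0.57 and adjusted p of 0.0734 to 0.203.

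**Figure D1:**
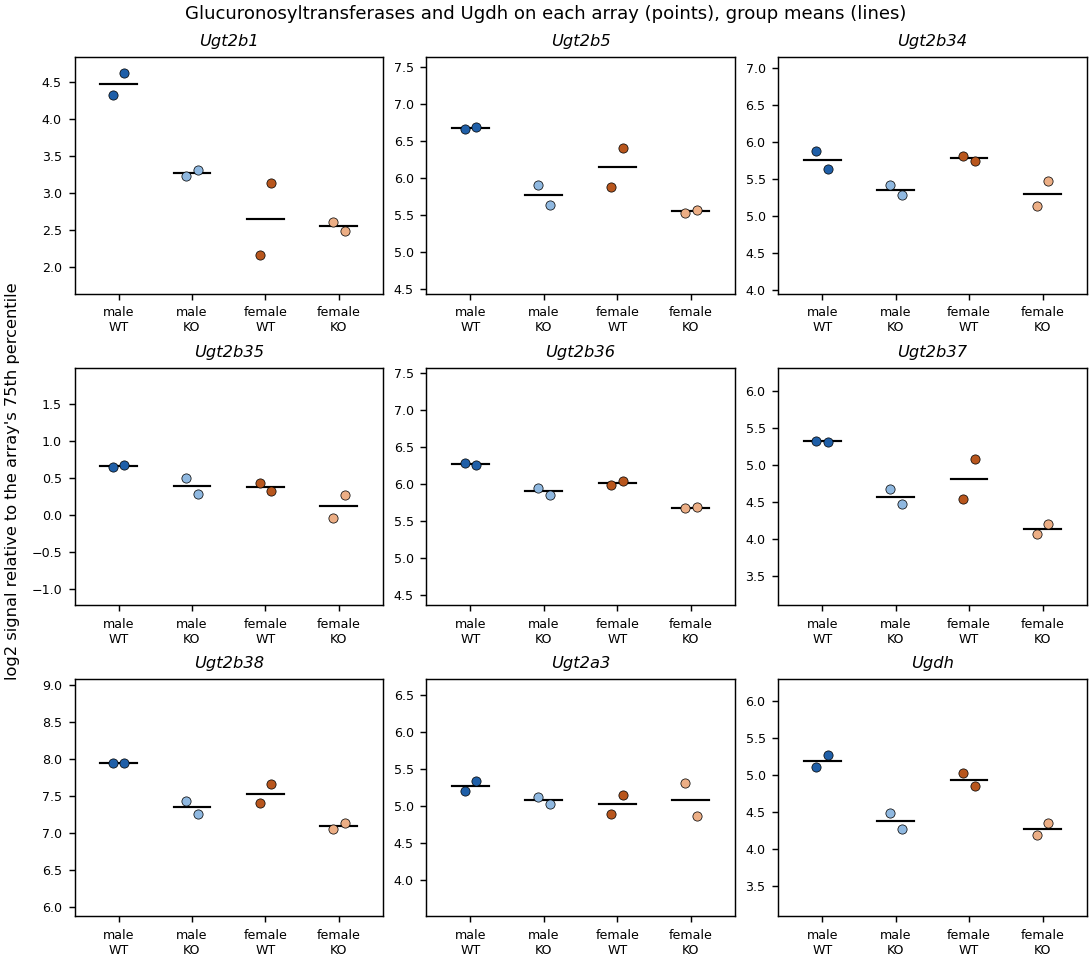
Level of each gene on each array (log2 signal relative to the array's 75th percentile; points are arrays, lines are means of 2; WT is wild type, KO is knockout; each panel spans 3.2 log2 units). For Ugdh all 4 knockout points lie below all 4 wild type points, whereas Ugt2b1 is set apart by the 2 male wild type points and by the gap between the 2 female wild type points.

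In males, Ugt2b5 and Ugt2b38 also fell. Ugt2b5 read 6.65 and 6.69 in male wild type, 5.91 and 5.63 in male knockout, 5.88 and 6.40 in female wild type and 5.53 and 5.56 in female knockout. Ugt2b38 read 7.95 and 7.94 in male wild type, 7.43 and 7.26 in male knockout, 7.41 and 7.66 in female wild type and 7.06 and 7.13 in female knockout. For both genes male wild type was the highest group and female knockout the lowest, without overlap to any other group, while male knockout and female wild type overlapped.

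Ugt2b5 fell by 0.90 ± 0.19 in males, to a signal 46.5% lower (limma, adjusted p = 0.0367), and Ugt2b38 fell by 0.60 ± 0.13, to a signal 33.9% lower (adjusted p = 0.0358). In females the differences were -0.59 ± 0.19 for Ugt2b5 (adjusted p = 0.128) and -0.43 ± 0.13 for Ugt2b38 (adjusted p = 0.104). Both male calls held without female wild type replicate 1 or 2 and were lost when any of the other 6 arrays was left out. The differences then ran from -1.04 to -0.76 and from -0.69 to -0.51, with adjusted p of up to 0.172 and 0.178. The female difference of Ugt2b5 was -0.86 without female wild type replicate 1, where it passed (adjusted p = 0.0465), and -0.33 without replicate 2 (0.287). That of Ugt2b38 was -0.56 and -0.31 in the same fits (0.0746 and 0.251).

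Ugt2b36 and Ugt2b37 had the same order of groups but missed the threshold. Ugt2b37 read 5.32 and 5.31 in male wild type, 4.67 and 4.46 in male knockout, 4.53 and 5.08 in female wild type and 4.07 and 4.19 in female knockout. Its knockout difference was -0.75 ± 0.19 in males and -0.67 ± 0.19 in females (limma, adjusted p = 0.0626 and 0.102). The male difference of Ugt2b37 passed without female wild type replicate 1 or 2 (0.0240 and 0.0244). Its female difference was -0.95 without replicate 1, where it passed (0.0324), and -0.40 without replicate 2 (0.196). Ugt2b36, with the smallest SE of the 9, read 6.28 and 6.25 in male wild type, 5.95 and 5.85 in male knockout, 5.99 and 6.04 in female wild type and 5.68 and 5.69 in female knockout. The 4 groups of Ugt2b36 did not overlap, and its differences were -0.37 ± 0.09 in males (adjusted p = 0.0593) and -0.33 ± 0.09 in females (adjusted p = 0.0953).

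Ugt2b1 had the widest difference of the 9 genes in males and among the smallest in females. It read 4.33 and 4.63 in male wild type, 3.24 and 3.31 in male knockout, 2.17 and 3.13 in female wild type and 2.61 and 2.50 in female knockout. The 2 male knockout arrays lay between the male wild type arrays and every female array, and the 2 female wild type arrays enclosed both female knockout arrays. The male difference was -1.21 ± 0.30, a 2.31-fold lower signal (limma, adjusted p = 0.0594), and the female difference was -0.10 ± 0.30 (95% interval -0.84 to 0.65, adjusted p = 0.874). Without female wild type replicate 1 the male difference passed (adjusted p = 0.0109) and the female difference was -0.58 (0.115). Without replicate 2 the male difference passed too (0.0110) and the female difference was 0.39 (0.262).

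Ugt2b34, Ugt2b35 and Ugt2a3 were called in neither sex. Ugt2b34 read 5.88 and 5.64 in male wild type, 5.42 and 5.29 in male knockout, 5.81 and 5.75 in female wild type and 5.13 and 5.48 in female knockout, so that both knockouts lay below both wild types. Its differences were -0.40 ± 0.15 in males and -0.48 ± 0.15 in females (limma, adjusted p = 0.160 and 0.129). Ugt2b35, which read 0.64 and 0.67 in male wild type, 0.49 and 0.28 in male knockout, 0.42 and 0.32 in female wild type and -0.05 and 0.27 in female knockout, differed by -0.27 ± 0.14 and -0.26 ± 0.14 (adjusted p = 0.282 and 0.317).

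Ugt2a3 read 5.21 and 5.35 in male wild type, 5.13 and 5.04 in male knockout, 4.90 and 5.15 in female wild type and 5.31 and 4.87 in female knockout. The female groups overlapped fully. The difference was -0.19 ± 0.18 in males (95% interval -0.63 to 0.24) and 0.06 ± 0.18 in females (95% interval -0.37 to 0.50), with limma adjusted p = 0.532 and 0.854. The male interval holds differences as large as those of Ugt2b38, which was called, and of Ugt2b36, Ugt2b34 and Ugt2b35.

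By count, 3 of the 9 genes fell in male knockouts, where 4.93% of all 26551 features fell and 10.7% changed in either direction. In female knockouts 1 of 9 fell, where 2.45% of features fell and 5.93% changed. At an unadjusted p under 0.05, the numbers were 7 of 9 in males (27.2% of all features) and 6 of 9 in females (24.9%). The 2 knockout arrays lay below the 2 wild type arrays for 9 of 9 genes in males (34.7% of all features did so) and for 7 of 9 in females (27.6%), the exceptions being Ugt2a3 and Ugt2b1. The median difference of the 9 genes was -0.60 in males and -0.43 in females, against -0.04 and 0.00 over all features. Under the other scalings (quantile normalisation, normexp and the deposited table) all 9 differences were below 0 in males and 8 of 9 in females.

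The 8 measured Ugt2 genes of the set and Ugdh all lie on chromosome 5, with the Ugt2 genes in the order Ugt2b34, Ugt2b1, Ugt2b35, Ugt2b36, Ugt2b5, Ugt2b37, Ugt2a3 and Ugt2b38, followed by Ugt2a1 and Ugt2a2. The knockout difference did not follow this order smoothly. Ugt2a3, with -0.19 in males and 0.06 in females, lies between Ugt2b37 (-0.75 and -0.67) and Ugt2b38 (-0.60 and -0.43). Ugt2b1, with -1.21 and -0.10, lies between Ugt2b34 (-0.40 and -0.48) and Ugt2b35 (-0.27 and -0.26). Ugt2a1, beyond the other end, differed by -0.41 ± 0.15 and -0.42 ± 0.15 (limma, adjusted p = 0.155 and 0.165).

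**Figure D2:**
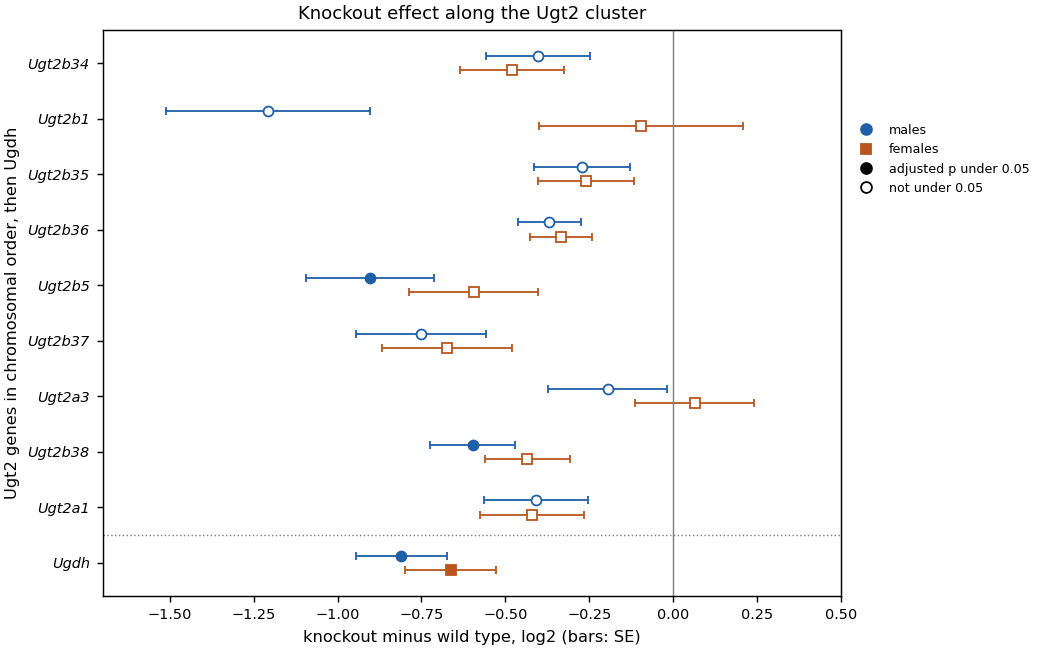
Knockout minus wild type (log2, horizontal axis; bars are SE) for the measured Ugt2 genes in their order on chromosome 5 and, under the dotted line, Ugdh, in males (circles) and females (squares). Filled symbols passed the test: Ugt2b5, Ugt2b38 and Ugdh in males and Ugdh in females. The male and female points of Ugt2b1 lie farthest apart.

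Whether males and females differed was tested within each genotype. In wild type 0 of 9 genes passed (0.975% of all features did), and 5 of 9 had an unadjusted p under 0.05 by limma (18.0% of all features). Male wild type arrays lay above female wild type arrays for 8 of 9 genes (26.4% of features), the exception being Ugt2b34. Ugt2b1 had the largest difference of the 9, 1.83 ± 0.30 or 3.55-fold higher in males (adjusted p = 0.0629). The size depended on the female arrays: it was 1.35 without female wild type replicate 1 (adjusted p = 0.0382) and 2.31 without female wild type replicate 2 (adjusted p = 0.00429). The next differences were 0.53 ± 0.19 for Ugt2b5 (adjusted p = 0.233), 0.51 ± 0.19 for Ugt2b37 (0.249) and 0.41 ± 0.13 for Ugt2b38 (0.185). These also turned on the female wild type arrays. Without replicate 1 they were 0.27, 0.24 and 0.29, and without replicate 2 they were 0.79, 0.79 and 0.54, with adjusted p of 0.0612 to 0.426 over the 6 values.

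Between knockout males and females, 0 of 9 genes passed (0.0753% of features did) and 0 had an unadjusted p under 0.05 by limma (6.0% of features). Male arrays lay above female arrays for 6 of 9 genes (22.2% of features). The Ugt2b1 difference was 0.72 ± 0.30 (adjusted p = 0.839), and Ugt2b37 followed with 0.43 ± 0.19 (adjusted p = 0.859). The interaction, the knockout effect in males minus that in females, passed for 0 of 9 genes (0.188% of features), with 1 gene, Ugt2b1, at an unadjusted p under 0.05 (8.37% of features). For Ugt2b1 it was -1.11 ± 0.43 (limma, adjusted p = 0.562). It was -0.63 without female wild type replicate 1 (adjusted p = 0.364) and -1.59 without replicate 2 (adjusted p = 0.0411). For the other 8 genes the interaction lay between -0.31 (Ugt2b5) and 0.08 (Ugt2b34).

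**Figure D3:**
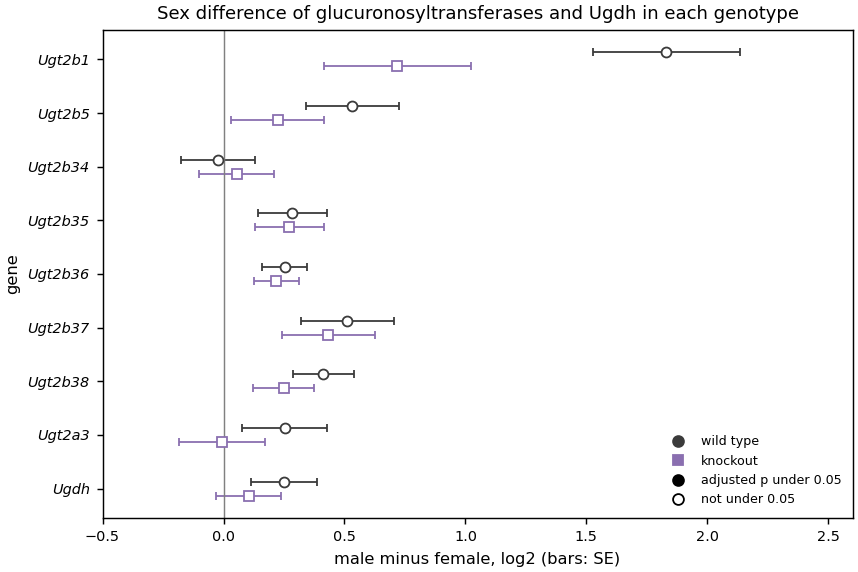
Male minus female (log2, horizontal axis; bars are SE) for the 9 genes in wild type (circles) and knockout (squares). No symbol is filled, since 0 of 9 genes passed the test in either genotype. Ugt2b1 lies farthest to the right in both, at 1.83 in wild type and 0.72 in knockout.

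Across the 8 arrays the genes fell into a tight and a loose part. Pearson correlations, which here mostly reflect the 4 groups and are given as a description, were 0.99 between Ugt2b5 and Ugt2b38 and between Ugt2b37 and Ugt2b38, and 0.96 to 0.98 for the other pairs among Ugt2b5, Ugt2b36, Ugt2b37 and Ugt2b38. Ugdh correlated with these 4 at 0.85 to 0.91 and with Ugt2b34 at 0.88. Ugt2a3 correlated with Ugt2b34 at -0.13, with Ugt2b35 at 0.12 and with Ugdh at 0.24. It correlated with Ugt2b5, Ugt2b36, Ugt2b37 and Ugt2b38 at 0.41 to 0.51 and with Ugt2b1 at 0.66. Among 15486 named genes, the most like Ugt2b38 were Ugt2b37 (0.990), Ugt2b5 (0.989) and Ugt2b36 (0.985). The most like Ugt2b5 were Cct8 (0.993), Dedd (0.990) and Ugt2b38 (0.989), and the most like Ugdh were Slc17a8 (0.987), Grtp1 (0.987) and Tmem239 (0.986).

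Of 13 other Ugt genes, 6 were tested. No probe was matched to Ugt1a2, Ugt1a5, Ugt1a7c, Ugt1a8, Ugt1a9 or Ugt2a2, and the probe for Ugt8a was not well above background on both arrays of any group. Ugt3a1 and Ugt3a2, on chromosome 15, fell in both sexes. Ugt3a1 read 5.25 and 5.18 in male wild type, 4.47 and 4.47 in male knockout, 5.05 and 5.02 in female wild type and 4.37 and 4.26 in female knockout, with every knockout array below every wild type array. It fell by 0.74 ± 0.09 in males, with a limma adjusted p of 0.00796, and fell by 0.72 ± 0.09 in females, with an adjusted p of 0.0137. The calls were lost without either knockout array of the same sex, with adjusted p of up to 0.0573 and 0.0652. Ugt3a2 fell by 0.41 ± 0.09 and 0.59 ± 0.09 (adjusted p = 0.0436 and 0.0215). Its second probe differed by -0.35 ± 0.15 and -0.65 ± 0.15 and was called in neither sex (adjusted p = 0.195 and 0.0600 over all probes). By the first probe, the male call was lost whichever array was left out (adjusted p of up to 0.187) and the female call was kept only without male wild type replicate 1 (up to 0.0930 otherwise).

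Ugt1a6b gave opposite answers by probe. Its brightest probe, which stands for the gene, rose by 0.52 ± 0.11 in male knockouts (limma, adjusted p = 0.0334), a call kept only without female wild type replicate 1 or 2 (adjusted p of up to 0.156 without another array). The second probe differed by 0.57 ± 0.13 in males (adjusted p = 0.0485 over all probes). The dimmest probe fell by 0.84 ± 0.12 in males and by 0.62 ± 0.12 in females (adjusted p = 0.0105 and 0.0375 over all probes). The places of the probes in the gene are not given, and which transcript each reads was not tested. With the mean of its probes Ugt1a6b was not called (adjusted p = 0.687). Ugt1a6a and Ugt1a10 differed by -0.27 ± 0.24 and 0.38 ± 0.27 in males (adjusted p = 0.522 and 0.405).

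**Figure D4:**
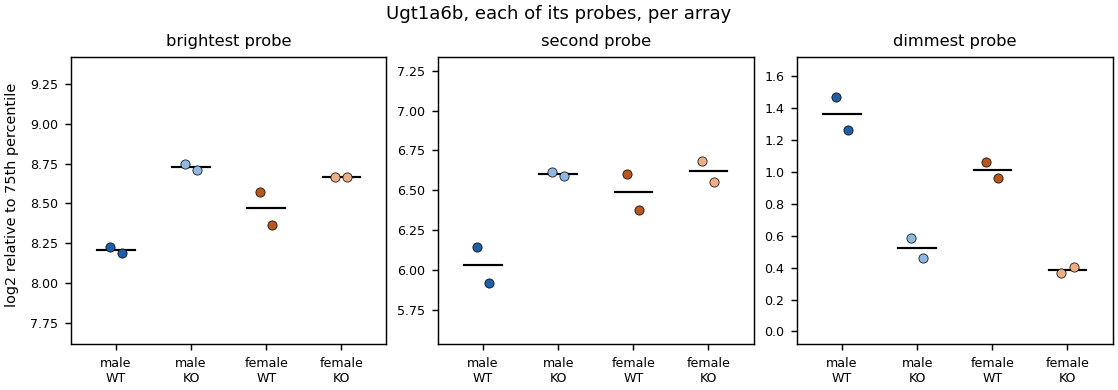
The 3 probes of Ugt1a6b, 1 panel each, as log2 signal relative to the array's 75th percentile on each array (points) with group means (lines); each panel spans 1.8 log2 units. The knockout points of males lie above the wild type points for the 2 brighter probes and below them for the dimmest.

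Other genes were read as lists chosen around glucuronide metabolism. Being listed, also among the other Ugt genes, does not show that an enzyme uses UDP-glucuronate. Over the 8 lists together, which include the other Ugt genes, 23 of 85 tested genes changed in males (11 rose, 12 fell) and 17 of 85 in females (5 rose, 12 fell), with a median difference of -0.03 and -0.10. Over all features 5.77% rose and 4.93% fell in males, and 3.48% rose and 2.45% fell in females. The male number was 14 without male knockout replicate 1, 10 without its replicate 2 and 13 without male wild type replicate 2. The female number was 3 and 5 when female knockout replicate 1 or 2 was left out. It was 11 and 9 when male wild type replicate 1 or 2 was left out, and 8 for either male knockout array.

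In the list named for the supply and transport of UDP-glucuronate, Enpp3 fell in both sexes and Enpp1 rose in males. Whether either alters the supply was not tested. The genes on the direct route to UDP-glucose, Pgm1, Pgm2 and Ugp2, and the carriers Slc35d1 and Slc35b1, were not called. Enpp3, a pyrophosphatase of the cell surface, read 2.44 and 2.83 in male wild type, -0.44 and -0.81 in male knockout, 2.10 and 2.26 in female wild type and 0.22 and -0.50 in female knockout. It fell by 3.26 ± 0.28 in males and fell by 2.32 ± 0.28 in females (limma, adjusted p = 0.00205 and 0.0101), calls that held whichever array was left out. Its relative Enpp1 rose by 0.88 ± 0.17 in males (adjusted p = 0.0263), a call that was lost without either female knockout array, either male wild type array or male knockout replicate 2 (up to 0.108).

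Of 4 genes listed for the release of glucuronic acid, 2 rose and 1 fell in both sexes. Gusb, the lysosomal beta-glucuronidase that takes the sugar off glucuronides, read 2.25 and 2.21 in male wild type, 3.18 and 3.32 in male knockout, 2.34 and 2.07 in female wild type and 3.15 and 3.27 in female knockout. Every knockout array lay above every wild type array. Gusb rose by 1.02 ± 0.13 in males, 2.02-fold, and by 1.0 ± 0.13 in females (limma, adjusted p = 0.00798 and 0.0129), calls lost without male knockout replicate 2 (0.0565) and without either female knockout array (up to 0.0637).

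The other genes of that list act on glycosaminoglycans. Idua rose by 0.69 ± 0.11 and 0.58 ± 0.11 (limma, adjusted p = 0.0148 and 0.0361), and Hyal1 fell by 1.39 ± 0.17 and 1.03 ± 0.17 (0.00774 and 0.0287). The male Idua call was lost without either male wild type array or male knockout replicate 2 (up to 0.0916), and the female call whichever array was left out (up to 0.159). The Hyal1 calls were lost without male knockout replicate 2 in males (0.0517) and kept only without female knockout replicate 1 in females (up to 0.0901 otherwise). Of 8 genes of the glucuronate and ascorbate pathway, Xylb, xylulose kinase, fell by 0.58 ± 0.10 and 0.62 ± 0.10 (adjusted p = 0.0173 and 0.0209). No fit that left out a male array kept the male call (up to 0.103), and the female call was kept only without replicate 1 of either wild type group (up to 0.0906 otherwise).

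Of 10 genes of bilirubin and heme breakdown, 1 rose and 2 fell in each sex. The lowest male difference in that list, -5.42, was of a gene not called. The highest wild type male minus female difference in it, 5.56, was not called either. Hmox1, which opens the heme ring, rose by 1.28 ± 0.17 in males and by 0.84 ± 0.17 in females (limma, adjusted p = 0.00845 and 0.0438). The female call was kept only without male knockout replicate 1 or 2 (up to 0.183 otherwise). Slco1b2, which takes bilirubin and its conjugates up from blood, fell by 1.22 ± 0.15 and 1.24 ± 0.15 (adjusted p = 0.00664 and 0.01004), the female call being lost without female knockout replicate 1 (0.0653). Abcc3, which exports glucuronides to the blood, read 6.11 and 5.88 in male wild type, 4.11 and 3.12 in male knockout, 6.30 and 6.28 in female wild type and 3.71 and 3.47 in female knockout. It fell by 2.38 ± 0.31 in males and fell by 2.70 ± 0.31 in females (adjusted p = 0.00899 and 0.00949), and the female call was lost without female knockout replicate 1 or 2 (up to 0.0521). The heme oxygenase Hmox2, both biliverdin reductases (Blvra and Blvrb) and the bile exporter Abcc2 were not called.

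Of 9 conjugate transporters, 2 fell in males, Abcc3 and the bile exporter Abcg2, and 1 in females, Abcc3. Abcg2 read 5.23 and 5.15 in male wild type, 4.36 and 4.31 in male knockout, 3.93 and 3.85 in female wild type and 4.05 and 4.39 in female knockout. Its male wild type arrays stood above the other 6. It fell by 0.86 ± 0.14 in males (limma, adjusted p = 0.0157), a call lost without any 1 of the 4 male arrays (up to 0.0915).

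**Figure D5:**
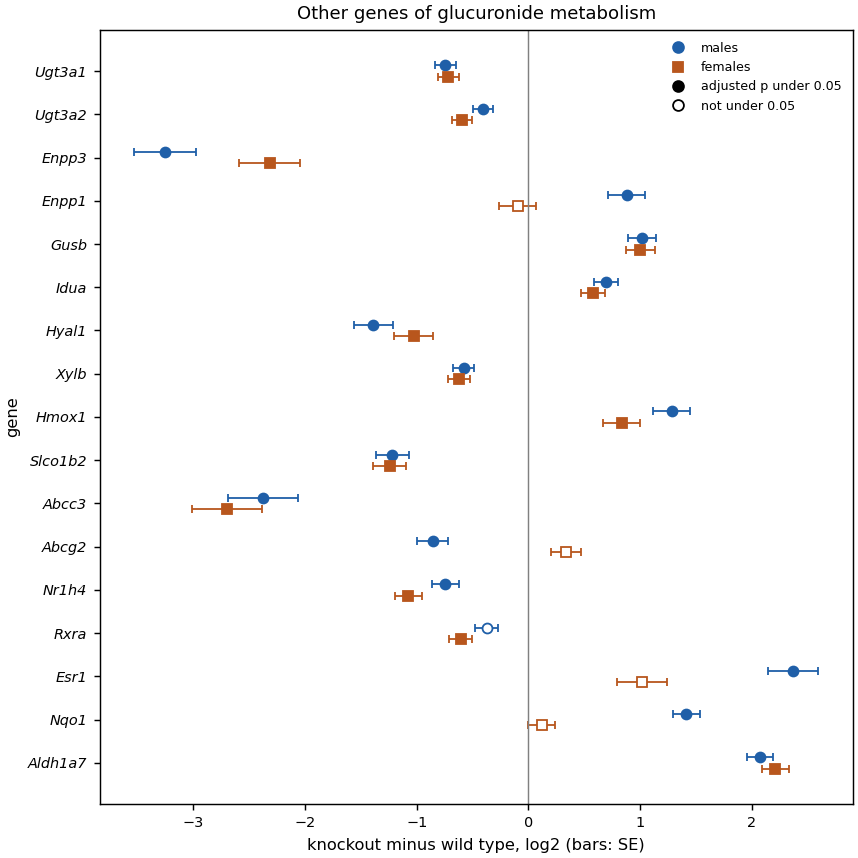
Knockout minus wild type (log2, horizontal axis, with SE as bars) in males (circles) and females (squares) for named genes of the lists. Filled symbols passed the test. Enpp3 and Abcc3 lie to the left and Gusb and Aldh1a7 to the right in both sexes, whereas Abcg2 lies left of 0 in males and right of 0 in females.

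Of 22 transcription factors listed as regulators of Ugt genes, 2 rose and 3 fell in males, and 1 rose and 3 fell in females. Cux2, a female-biased factor of mouse liver, was not well above background on either male wild type array and was at least 109-fold higher in male knockout (limma, adjusted p = 0.000174). In females Cux2 rose by 1.66 ± 0.26 (adjusted p = 0.0240), a call lost without any 1 of the 4 knockout arrays (up to 0.122). Esr1, the estrogen receptor, rose by 2.37 ± 0.22 in males (adjusted p = 0.00291). Nr1h4, the bile acid receptor FXR, fell by 0.74 ± 0.12 in males and by 1.07 ± 0.12 in females (adjusted p = 0.0182 and 0.00909). The Nr1h4 calls were lost without either male knockout array or male wild type replicate 2 (up to 0.102), and without female knockout replicate 1 (0.0556). Rxra, the partner of many nuclear receptors, fell by 0.61 ± 0.10 in females (adjusted p = 0.0288), a call lost whichever array was left out (up to 0.115).

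The remaining called regulators were named after their values were seen. Nr1i2 (the drug receptor PXR) and Foxa1 fell by 0.74 ± 0.15 and 2.17 ± 0.51 in males (limma, adjusted p = 0.0356 and 0.0485), and Nr1i3 (the drug receptor CAR) fell by 1.03 ± 0.19 in females (0.0368). Leaving out 1 array gave adjusted p of up to 0.170, 0.180 and 0.104. In females Nr1i2 and Foxa1 also read lower in knockouts, by 0.67 ± 0.15 and 1.45 ± 0.51, but missed the threshold (limma, adjusted p = 0.0618 and 0.149). The male difference of Nr1i3 was 0.14 ± 0.19 (adjusted p = 0.685). Hnf4a, Ahr, Nfe2l2 and Stat5b were not called in either sex.

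Genes listed as reporters of these receptors gave a mixed picture, with 4 of 14 rising and 1 falling in males and 1 rising and 1 falling in females. Cyp2b9 and Cyp2b10, listed here as reporters of CAR, rose by 5.59 ± 0.47 and 4.50 ± 0.41 in males (limma, adjusted p = 0.00207 and 0.00264). Nqo1, a reporter of Nrf2, rose by 1.41 ± 0.12 in males (0.00209), and Aldh1a7 rose by 2.07 ± 0.12 and 2.21 ± 0.12 in males and females (0.000509 and 0.000792). These 5 calls held whichever array was left out. Cyp2c55 fell by 1.42 ± 0.26 and 1.69 ± 0.26 (0.0233 and 0.0208), a male call kept only without female wild type replicate 1 or 2 (up to 0.109 otherwise) and a female call lost without any knockout array (up to 0.0928). Cyp3a11, Gclc and Gclm were not called. Between wild type sexes, 3 of the 14 genes were called lower in males and 0 higher. Cyp2b10 averaged 2.57 in male wild type, 7.07 in male knockout, 7.50 in female wild type and 7.44 in female knockout. Its wild type male minus female difference was -4.93 ± 0.41 (limma, adjusted p = 0.00741), and its female knockout difference was -0.07 ± 0.41. The activity of the receptors was not tested.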

How the data were processed

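Total RNA of whole liver was labelled with Cy3, per the labels' protocols. The deposited intensity values are background-subtracted processed signals, per the file headers, which name Agilent Feature Extraction 11.5.1.1 (the submitters' processing notes name 9.1.3.1). The deposited value table holds log2 values, equal within 0.01 to log2 of the processed signal minus 1 constant an array (6.99 to 7.30).

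Here log2 processed signals minus each array's 75th percentile were used, leaving out controls and flagged spots. A probe was kept if well above background on both arrays of a group, and the brightest probe stood for a gene. Limma 3.58.1 (R 4.3.3) fitted 4 group means to 8 arrays, with 4 residual degrees of freedom, with Benjamini-Hochberg adjustment over 26551 features and a threshold of 0.05. Of 56605 probes, 32994 were named through RefSeq's gene list (GRCm38.p6, names and order only, as the array is annotated on another build). "At least" folds raise the group below background to the lowest signal well above background on each array. The number of arrays limits the precision: the median SE was 0.162.

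Named were all genes of the set, Bcl6, in each comparison the 3 called genes per list that had the lowest adjusted p (or fewer), and the 3 genes most like each called gene of the set. 1 called list gene is not reported here. Genes and lists were chosen with earlier results of these data known. Alternatives were quantile normalisation, normexp (offset 50, on median signals, since the files hold no mean signal), the deposited table, other probe filters, the mean of probes, fewer groups, the replicate number as a block and each array left out. The fit was run on simulated data with changes of at least 1 log2 unit planted in males. Its behaviour at smaller differences, such as most of those of the set, was not tested.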

Additional observations from a re-analysis of the deposited data

Results flagged for a closer look

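Among the genes named, 5 were flagged because the knockout moved them differently in males and females. Cux2 and Cyp2b9 had interactions (knockout effect in males minus that in females) of 6.91 and 6.43 (limma, adjusted p = 0.00948 and 0.0397), and the erythroid gene Alas2 one of -3.08 (adjusted p = 0.0353). Cux2's male wild type arrays were not well above background, so its value is no bound. The Cyp2b9 call was lost without either female knockout array, replicate 1 of the female wild type or male knockout replicate 1 (up to 0.109), and the Alas2 call without female knockout replicate 1, male wild type replicate 1 or either male knockout array (up to 0.0774).

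The transporters Slco1a4 and Abcg2 moved in opposite directions in the sexes on every array, with interactions of 1.38 and -1.19 that did not pass the test (adjusted p = 0.340 and 0.152). Nr1i3, named after its values were seen and not flagged, did so too, with an interaction of 1.18 ± 0.27 (limma, adjusted p = 0.332). Cyp2b10, not flagged either, had an interaction of 4.57 ± 0.58 that did not pass (adjusted p = 0.0755). Slco1a4 read 1.38 and 1.31 in male wild type, 2.21 and 2.14 in male knockout, 3.32 and 2.58 in female wild type and 2.43 and 2.38 in female knockout. In wild type it was lower in males by 1.61 on the log2 scale (male minus female -1.61 ± 0.23, adjusted p = 0.0486), a call kept only without female wild type replicate 1 or 2 (up to 0.135 otherwise). Abcg2 was higher in wild type males by 1.30 ± 0.14 (adjusted p = 0.0169), a call lost without male wild type replicate 1 or either male knockout array (up to 0.0699).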

How the results depend on the processing

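Of the 9 genes, the number called in male knockouts was 3, and became 1 with quantile normalisation, 6 with normexp, 0 with no filter on dim probes, 6 with only probes well above background on all 8 arrays, 5 with only the male groups and 0 to 5 with 1 array left out. In female knockouts it was 1, and became 4 with normexp, 0 with no filter, 0 with only the female groups and 0 to 2 with 1 array left out. Between wild type males and females it was 0, and became 1 with normexp, 1 with probes well above background on all 8 arrays and 0 to 1 with 1 array left out. For the interaction it was 0, and 0 to 1 with 1 array left out.

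For the pathway lists, 23 calls in males became 13 with no filter and 10 to 27 with 1 array left out. In females 17 became 26 with normexp, 5 with no filter, 2 with only the female groups and 3 to 14 with 1 array left out. Between wild type males and females 6 became 10 with normexp, 3 with no filter, 2 with only the wild type groups and 3 to 9 with 1 array left out. For the interaction 2 became 4 with normexp, 1 with no filter, 1 with probes well above background on all 8 arrays and 1 to 6 with 1 array left out. The cause was not tested, beyond the fewer arrays of the smaller fits.

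Taking the replicate number as a block (replicate block), the genes called were 1 in males (Ugdh) and 0 in females. The labels do not say whether the numbers pair the samples. Over all features, deviations of same-numbered arrays correlated at -0.002 to 0.10, and pairing that moves only some genes was not tested.

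Some values changed sign. Between wild type sexes Ugt2b34 became 0.012 with normexp. For the interaction, Ugt2b35 became 0.0036 with quantile normalisation and 0.11 with normexp, and Ugt2b36 became 0.018 with quantile normalisation. With 1 array left out, the female knockout difference ran from -0.16 to 0.29 for Ugt2a3 and -0.58 to 0.39 for Ugt2b1. The knockout sex difference ran from -0.0057 to 0.21 for Ugdh, -0.23 to 0.22 for Ugt2a3 and -0.12 to 0.23 for Ugt2b34, and the wild type one from -0.15 to 0.10 for Ugt2b34. The interaction ran from -0.095 to 0.25 for Ugt2b34, -0.17 to 0.15 for Ugt2b35, -0.082 to 0.014 for Ugt2b36 and -0.35 to 0.20 for Ugt2b37.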
